A study of Mus musculus with 6 samples.

Results

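The complement system was followed here through 9 genes, chosen by symbol: the C1q chains C1qa, C1qb and C1qc, the components C3 and C4b, the receptors C3ar1, C5ar1 and Itgam, and the inhibitor Serping1. All 9 were among the 24421 gene symbols listed for every library, and all 9 were among the 18413 genes whose mean was high enough to be tested. RNA-seq was run on 6 libraries of cells sorted from the mouse olfactory bulb, 3 from controls and 3 from Sox9 KO animals, to ask how expression in astrocytes changes once the transcription factor Sox9 is deleted. The labels give the strain C57BL/6 for all animals, with the genotype WT or Sox9 KO. Controls were C57BL/6J by the extraction protocol and Sox9+/+ by the study's methods, and KO animals were Sox9fl/fl. Every animal, control or KO, had received AAV-GFAP-iCre-P2a-TurboRFP in the bulb, an adeno-associated virus whose GFAP promoter drives both Cre recombinase and TurboRFP, a red fluorescent protein. Bulbs of adult males were taken 4 weeks after the injection, digested with papain and sorted on TurboRFP. An age range is stated for the mice in general, not for these animals. The deletion thus depended on where the virus and its GFAP promoter were active, and the sort, gated on scatter and singlets with a fluorescence boundary set on an uninjected mouse, is described with no marker for removing other cell types. For purity, the study states that it relied on known cell-type markers in the RNA-seq rather than on a check after sorting. Each library comes from 1 animal.

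Complement is a cascade of plasma and tissue proteins that tags surfaces for removal. C1q binds a target and, through the proteases C1r and C1s, cleaves C4 and C2, which leads to the cleavage of C3, the point where the classical, lectin and alternative routes meet. Fragments of C3 and C5 are read by receptors on phagocytes, and a large set of inhibitors keeps the cascade off the body's own cells. In the brain C1q is made mainly by microglia, C3 is a widely used marker of reactive glia, and the C3 receptor formed by Itgam (CD11b) and Itgb2 is a microglial receptor known from synapse removal.

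The promoters of 4 of the genes are shown because they belong to the C1q chains highest per kilobase of transcript, to the gene of the 9 with the largest fold change and to the receptor chain that is the standard surface marker of microglia. Each is the 300 bases from 250 before to 50 after the annotated start, taken from RefSeq on GRCm38.p6, the assembly behind mm10, and read on the gene's strand. The capitals mark GAGGAA or its reverse complement TTCCTC, the core bound by the myeloid factor PU.1 and its relatives. The windows lie at chr4:136886151-136886450 (minus strand, C1qb), chr4:136892865-136893164 (minus strand, C1qc), chr17:57228087-57228386 (minus strand, C3) and chr7:128062390-128062689 (plus strand, Itgam).
C1qb: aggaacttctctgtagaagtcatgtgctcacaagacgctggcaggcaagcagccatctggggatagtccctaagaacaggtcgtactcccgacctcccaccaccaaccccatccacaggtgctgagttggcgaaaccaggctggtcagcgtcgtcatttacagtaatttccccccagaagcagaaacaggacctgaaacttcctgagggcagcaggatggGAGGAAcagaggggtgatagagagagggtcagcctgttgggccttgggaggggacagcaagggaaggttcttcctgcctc
C1qc: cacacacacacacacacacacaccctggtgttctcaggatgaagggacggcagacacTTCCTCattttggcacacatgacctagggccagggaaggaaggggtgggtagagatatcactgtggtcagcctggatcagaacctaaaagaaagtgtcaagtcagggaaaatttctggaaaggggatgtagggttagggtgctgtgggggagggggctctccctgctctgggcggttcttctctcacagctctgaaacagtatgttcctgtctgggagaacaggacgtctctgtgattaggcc
C3: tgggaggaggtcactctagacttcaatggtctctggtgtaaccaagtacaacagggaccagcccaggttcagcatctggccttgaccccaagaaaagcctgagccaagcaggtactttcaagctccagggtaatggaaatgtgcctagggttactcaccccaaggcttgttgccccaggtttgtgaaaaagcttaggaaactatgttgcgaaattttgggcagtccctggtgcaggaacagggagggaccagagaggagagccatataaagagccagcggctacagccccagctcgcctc
Itgam: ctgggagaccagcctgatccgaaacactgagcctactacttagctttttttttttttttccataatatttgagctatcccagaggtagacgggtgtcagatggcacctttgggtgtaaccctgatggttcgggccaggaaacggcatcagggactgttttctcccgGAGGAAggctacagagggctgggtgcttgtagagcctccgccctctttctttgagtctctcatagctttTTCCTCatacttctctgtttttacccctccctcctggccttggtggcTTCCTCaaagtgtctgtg

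The Itgam window held 3 matches, the C1qb and C1qc windows 1 each, and the C3 window 0. The windows of C3ar1 and C5ar1, which are not printed, held 0 as well. RefSeq promoter windows were matched for 6 of the 9 genes and not for C1qa, C4b and Serping1. Over all 32851 promoter windows of the same length 28.3% held GAGGAA on either strand. The core TTCNNNGAA of the STAT factors was in 8.3% of all windows and in none of the 6. The SOX-type cores ACAATG and ACAAAG were in 12.6% and 18.7% of all windows and in none of the 6. All motifs were searched on both strands, and a match is a description of the letters only.

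The recovered reads on genes ran from 18242129 to 86906527 per library, with KO replicate 2 the deepest. Values are normalized counts, which are reads on a gene divided by 1 size factor per library. Sox9 itself averaged 5556 ± 881 in the controls and 58.2 ± 5.88 in the KO libraries (mean ± SD, n = 3 here and below). Its log2 fold change was -6.54 (limma, adjusted p = 2.5e-09), in the direction that the labels give. The sorted cells were labelled astrocytes, and all 10 astrocyte markers, among them the glutamate transporter Slc1a2, fell, from a summed level of 505597 to 558906 in the controls to 61003 to 70911 in the KO libraries. Microglia markers were abundant in both groups and moved the other way: 13 of 14 rose, from a summed level of 162490 to 194327 in the controls to 538302 to 648582 in the KO libraries. None of the 14 was at 0, the list including Csf1r and P2ry12, and Fcrls did not pass the test (log2 fold change 0.16, limma, adjusted p = 0.7). In bulk libraries like these, a change in the cells of a type and a change in RNA per cell cannot be told apart. This holds for Sox9 and the markers above and for every value below.

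Of the 9 complement genes, 8 were higher in the Sox9 KO libraries and 0 lower, at a limma adjusted p under 0.05 with a change of at least 1.5-fold. The count of lower genes was also 0 at an unadjusted p under 0.05, with edgeR and with DESeq2. Over all genes tested 22.2% were called higher and 28.8% lower. The 9 genes were chosen with earlier results of these data known. The median log2 fold change was 1.84 over the 9 genes and -0.07 over all genes tested. Every KO library lay above every control library for 8 of the 9 genes, a pattern found in 32.4% of all genes tested, and for 0 of the 9 did every KO library lie below, against 34.7% of all genes. The exception was Serping1. Among genes called, 56.4% were lower in the KO; that share was 43.2% after quantile normalization, 67.8% with libraries set to the same total and 71.5% with the same total leaving out the ribosomal RNA gene Rn45s, and the 8 calls became 7 under the last 2 of these, with C5ar1 lost.

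**Figure D1:**
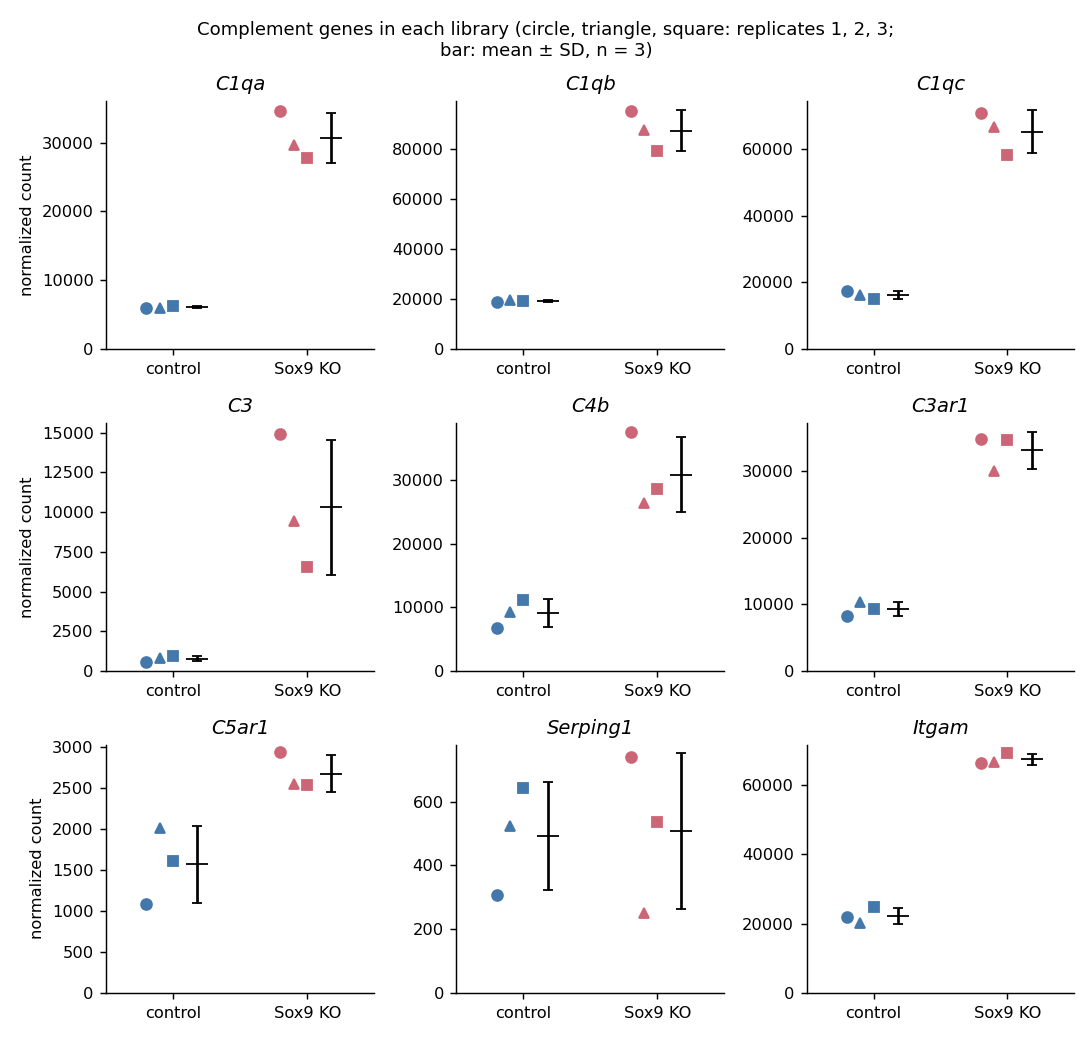
Normalized count of each of the 9 complement genes (vertical axis, linear from 0) in the 3 control and 3 Sox9 KO libraries, with circles, triangles and squares for replicates 1, 2 and 3 and bars for the mean ± SD. The KO points lie above all control points in 8 panels, while in the Serping1 panel the control points (308 to 643) fall inside the spread of the KO points (251 to 739).

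Per kilobase of transcript the recognition molecule was the most abundant of these products. The A chain, C1qa, stood at 5953, 6023 and 6278 normalized counts in control replicates 1, 2 and 3 and at 34628, 29602 and 27723 in KO replicates 1, 2 and 3. The lowest KO library was thus far above the highest control, and the mean was 5.04 times higher (6085 ± 171 against 30651 ± 3570; log2 fold change 2.33, SE 0.10, limma, adjusted p = 3.6e-08). C1qb, the B chain and the highest of the 9 genes per kilobase, gave 18937, 19736.5 and 19238 in the controls, against 95189.7, 87378 and 79032 in the KO libraries. Its controls lay within a narrow band and its KO mean was 4.52 times the control mean (log2 fold change 2.17, SE 0.10, limma, adjusted p = 6e-08). The C chain, C1qc, stood at 17497, 16104 and 15102 in the controls against 70902, 66604.5 and 58314 in the KO libraries. The groups again did not overlap, with a 4.02-fold higher mean (log2 fold change 2.01, SE 0.11, limma, adjusted p = 1.3e-07). For all 3 chains KO replicate 1 was the highest library and KO replicate 3 the lowest. The 3 genes sit side by side on the minus strand of chromosome 4 in mm10, C1qb at chr4:136880129-136886187, C1qc at chr4:136889804-136893065 and C1qa at chr4:136895917-136898803, each with 3 exons, and no 50-base window of their transcripts was shared with another gene.

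The proportion of the chains was read per length. Per kilobase of transcript, C1qb made up 47.9% ± 1.43 of the summed level of the 3 chains in the controls and 48.9% ± 0.24 in the KO libraries. C1qa went from 15.2%, 15.5% and 16.6% in the controls to 18.5%, 17.3% and 18.04% in the KO libraries, with no overlap. C1qc went the other way, from 38.6%, 35.9% and 34.6% to 32.8%, 33.7% and 32.8%. The shares depend on the length used for C1qc, 1203 bases for its longest transcript and 1931 for its merged exons. The lengths of C1qa and C1qb were the same on both. Per kb of merged exons the C1qc control mean was 8407, against 13495 per kb of the longest transcript. These shares are given as a description.

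C3, the component on which all routes converge, had the largest fold change of the 9. It stood at 593, 832 and 919 normalized counts in the controls and at 14914, 9424 and 6559.7 in the KO libraries. KO replicate 1 held more than KO replicate 3 by a wide margin, yet the lowest KO library was still above the highest control. The mean was 13.2 times higher (781 ± 169 against 10299 ± 4245; log2 fold change 3.66, SE 0.26, limma, adjusted p = 8.4e-07), and the log2 fold change ran from 3.35 without KO replicate 1 to 3.95 without KO replicate 3. C3 lies at chr17:57203970-57228136 on the minus strand, with 41 exons. C4b, a C4 gene whose product is cleaved by C1s, stood at 6794, 9311 and 11208.5 in the controls and at 37529.5, 26463.5 and 28677 in the KO libraries. The groups did not overlap, and the mean was 3.39 times higher (9104 ± 2215 against 30890.0 ± 5855; log2 fold change 1.78, SE 0.18, limma, adjusted p = 1.2e-05). C4b lies at chr17:34728380-34743882 on the minus strand, and 35.2% of the 50-base windows of its transcript also occur in C4a, so that the split of reads between the pair is uncertain. C4a moved alongside it, from 1125 ± 282 to 3989 ± 618 (log2 fold change 1.84, SE 0.18, limma, adjusted p = 7.2e-06), and the pair summed gave 1.78.

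Ratios of normalized counts within a library were read only for how they differed between the groups. The ratio of C3 to C4b was 0.0873, 0.0894 and 0.0820 in the controls, against 0.397, 0.356 and 0.229 in the KO libraries. The ratio was higher in every KO library than in any control, with a difference of 1.89 on the log2 scale (exact permutation test, two-sided, p = 0.1, the smallest that 3 against 3 libraries can give). Against C1qb the difference was 1.49, and against the C3 receptor gene C3ar1 1.83, with the same p of 0.1 in the exact permutation test for each. For C3 to C3ar1 the ratio was 0.0717, 0.0803 and 0.0993 in the controls, against 0.429, 0.315 and 0.189 in the KO libraries. In all, 7 such ratios were computed here and below, and a p of 0.1 is 0.117 after Benjamini-Hochberg adjustment over the 7. The ratio of C4a to C4b differed by 0.07 on the log2 scale, with an exact permutation p of 0.3 (0.3 adjusted).

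Among the receptors, C3ar1, the G protein-coupled receptor for the C3a fragment, stood at 8273, 10356.5 and 9251 in the controls and at 34748, 29930 and 34627.5 in the KO libraries. The groups were far apart and the mean was 3.56 times higher (9293 ± 1043 against 33102 ± 2748; log2 fold change 1.84, SE 0.11, limma, adjusted p = 2.4e-07). The gene lies at chr6:122847138-122856161 on the minus strand, with 2 exons. C5ar1, the C5a receptor, stood at 1086, 2016 and 1608 in the controls and at 2940.5, 2557 and 2540.0 in the KO libraries. All KO libraries were above all controls, but the gap was smaller than the range of the controls, of which replicate 1 was the lowest. Its mean was 1.71 times higher (1569.7 ± 466 against 2679 ± 226; log2 fold change 0.81, SE 0.19, limma, adjusted p = 0.0036). The call was lost, with the change under 1.5-fold, without control replicate 1 (log2 fold change 0.57, limma, adjusted p = 0.0068), with libraries set to the same total (0.57) and with the same total without Rn45s (0.49). C5ar1 lies at chr7:16246743-16259540 on the minus strand.

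Itgam, the alpha chain of complement receptor 3, stood at 21779.7, 20099.8 and 24777 in the controls and at 66395, 66557 and 69229 in the KO libraries. The KO libraries were tightly grouped well above the controls, with a 3.03-fold higher mean (22219 ± 2369 against 67394 ± 1592; log2 fold change 1.61, SE 0.11, limma, adjusted p = 5.1e-07). The gene lies at chr7:128062640-128118491 on the plus strand, with 30 exons. In the GENCODE annotation of this build 68.7% of its exon bases overlap Gm49368 on the same strand, a gene that the deposited tables do not list, so how such reads were counted is not known.

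The anaphylatoxin receptors were compared within each library. The ratio of C3ar1 to C5ar1 was 7.62, 5.14 and 5.75 in the controls, against 11.8, 11.7 and 13.6 in the KO libraries, a difference of 1.02 on the log2 scale (exact permutation test, p = 0.1). C5ar2, the second C5a receptor, which does not couple to G proteins, went from 549 ± 55.4 to 2221 ± 110 (log2 fold change 2.02, SE 0.11, limma, adjusted p = 1.3e-07). The ratio of C5ar2 to C5ar1 was 0.564, 0.252 and 0.328 in the controls, against 0.797, 0.833 and 0.863 in the KO libraries (difference 1.21 on the log2 scale, exact permutation test, p = 0.1). Itgb2, the beta chain that pairs with Itgam, rose from 2366 ± 22.4 to 9895 ± 726 (log2 fold change 2.06, SE 0.09, limma, adjusted p = 3e-08), and the ratio of Itgam to Itgb2 was 9.23, 8.56 and 10.4 in the controls, against 6.20, 6.91 and 7.42 in the KO libraries (difference -0.46, exact permutation test, p = 0.1).

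Serping1, the C1 inhibitor that blocks C1r, C1s and the lectin proteases, stood at 308, 524 and 643 normalized counts in the controls and at 739, 251 and 536 in the KO libraries. The highest and the lowest of the 6 values were both KO libraries, so the groups overlapped fully. The means were 491.7 ± 169.7 and 509 ± 245 (log2 fold change -0.02, 95% interval -0.85 to 0.81, limma, adjusted p = 0.97), an interval that leaves room for a change of either sign. Between 211 and 761 reads lay behind each value. Its sign changed with the scaling and with the library left out, reaching 0.42 without KO replicate 2 (limma, adjusted p = 0.25). Serping1 lies at chr2:84765387-84775444 on the minus strand, with 8 exons, and shares no 50-base window with another gene.

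The order of levels was read per kilobase of the longest transcript. In the controls it ran from C1qb (17743 normalized counts per kb) through C1qc (13495), C1qa (5851), Itgam (4746), C3ar1 (2159), C4b (1693), C5ar1 (618) and Serping1 (278) to C3 (152). Neighbours whose ranges overlapped were C3ar1 with C4b and Serping1 with C3. In the KO libraries the top 6 places kept their order, C1qb reaching 80147, while C3 rose from the ninth place to the seventh, at 2005 normalized counts per kb against 1055 for C5ar1 and 288 for Serping1. The ranges of C3ar1 and C4b overlapped there as well, and all other neighbours were apart.

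**Figure D2:**
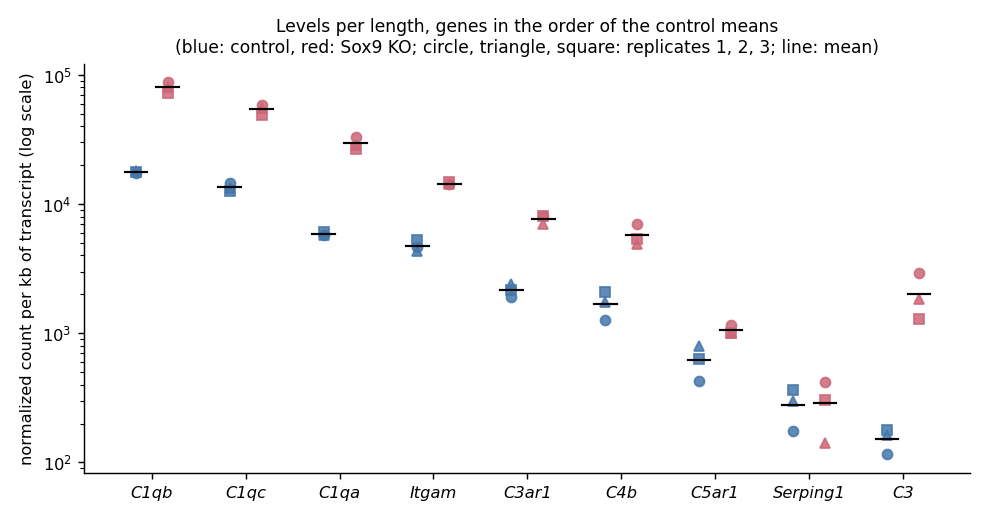
Normalized count per kb of transcript (vertical axis, log scale) for the 9 genes in the order of the control means, with blue for control and red for Sox9 KO libraries, symbols for replicates 1, 2 and 3 and a line at each mean. C1qb is highest in both groups, and C3 goes from the lowest control mean (152) to a KO mean of 2005, above C5ar1 and Serping1.

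Because the microglia markers rose with these genes, each gene was also set against them within each library, as log2(gene + 1) minus the mean of log2(marker + 1) over the 14 markers. The marker mean itself was 13.03 ± 0.12 in the controls and 14.74 ± 0.12 in the KO libraries, a difference of 1.72. C3 stood at -3.95, -3.25 and -3.12 in the controls and at -0.89, -1.65 and -1.94 in the KO libraries, 1.95 higher on average. C1qa was 0.61, C1qb 0.46 and C1qc 0.29 higher relative to the markers, with every KO library above every control. C4b (0.06), C3ar1 (0.12) and Itgam (-0.11) had overlapping groups, and their exact permutation p-values were 1, 0.6 and 0.6, which does not show that they moved as the markers did. C5ar1 was lower relative to the markers by -0.90 and Serping1 by -1.74, with every KO library below every control. For these 6 genes with separate groups the exact permutation p was 0.1, the smallest possible here, and 0.15 adjusted over the 9 genes. With Csf1r, Cx3cr1, Aif1 and Tyrobp alone as the yardstick the C1qc difference was 0.0087 with overlapping groups (exact permutation p = 1.0), while C3 stayed higher and C5ar1 and Serping1 lower in every KO library. With border macrophage markers in their place C5ar1, Serping1 and Itgam changed sign (0.95, 0.11 and 1.74), and C4b and C3ar1 did so without Fcrls (-0.060 and -0.00033). The part of the microglia markers in the rise of the complement genes was not tested.

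**Figure D3:**
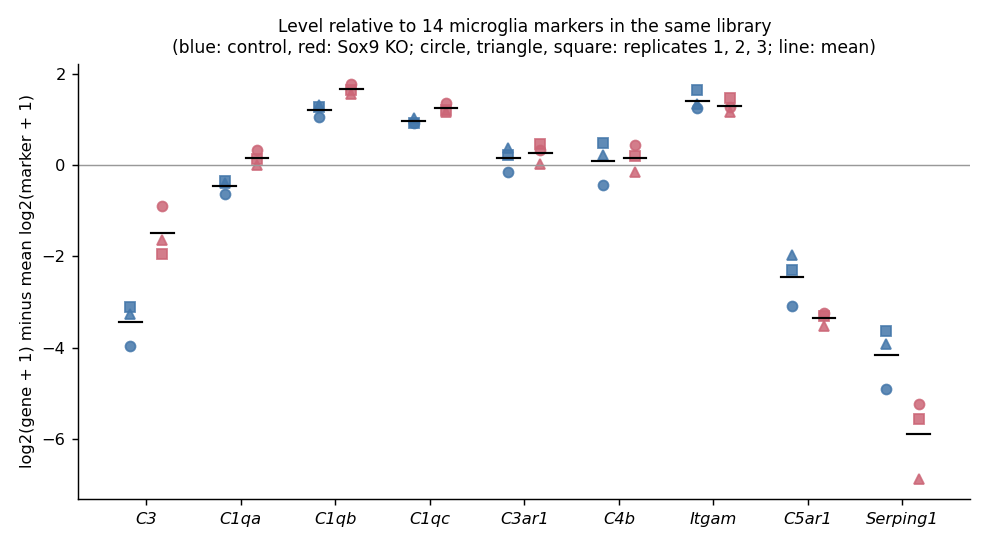
Level of each of the 9 genes relative to the mean of 14 microglia markers in the same library (vertical axis, log2 units), with blue for control and red for Sox9 KO libraries, symbols for replicates 1, 2 and 3 and a line at each mean. C3 shows the widest upward gap (1.95), C4b, C3ar1 and Itgam have interleaved points, and C5ar1 and Serping1 lie lower in the KO libraries.

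Other cell types that carry complement receptors or make complement were checked by marker lists. Over all genes tested 22.2% were called higher and 28.8% lower, and the counts below are not read as changes in these cell types. Of 9 border macrophage markers, among them Mrc1, Stab1 and F13a1, 3 rose and 4 fell, with summed levels of 18716 to 28219.9 in the controls and 31359.6 to 38099 in the KO libraries, and none was at 0. Of 7 neutrophil markers tested 6 fell, with summed levels of 770.1 to 6890.1 in the controls, the highest in control replicate 2, and 236 to 765 in the KO libraries. Of 5 monocyte markers 1 rose, with summed levels of 346 to 911 and 667 to 1437. Of 19 reactive astrocyte markers 10 rose and 8 fell, with summed levels of 29809.8 to 41617 and 72822 to 97783. The genes with the highest means in this list moved in both directions, and its sum is not read as a change in reactive astrocytes. The hemoglobin genes Hba-a1, Hba-a2, Hbb-bs and Hbb-bt were listed at 0 in every library. Their part in the values of the complement genes was not tested.

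The rest of the pathway was read from a list of 51 further complement symbols, grouped by role. Like the 9 genes, the list was chosen with earlier results of these data known. It held 49 that were listed and 42 that were tested. Of these 13 rose, 14 fell and 15 did not pass the test, with a median log2 fold change of -0.29. The shares, 31.0% higher and 33.3% lower, lie near those over all genes tested (22.2% and 28.8%) and are not read as a result about the list. C1s and Gpr77 were not listed under those symbols, and Mbl1, Mbl2 and C8a were at 0 in every library. By role, 3 of 10 tested initiation genes rose and 3 fell, 3 of 5 central components rose and 1 fell, 1 of 4 terminal components rose and 1 fell, 4 of 6 receptors rose and the other 2 did not pass the test, and 2 of 17 regulators rose and 9 fell.

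**Figure D4:**
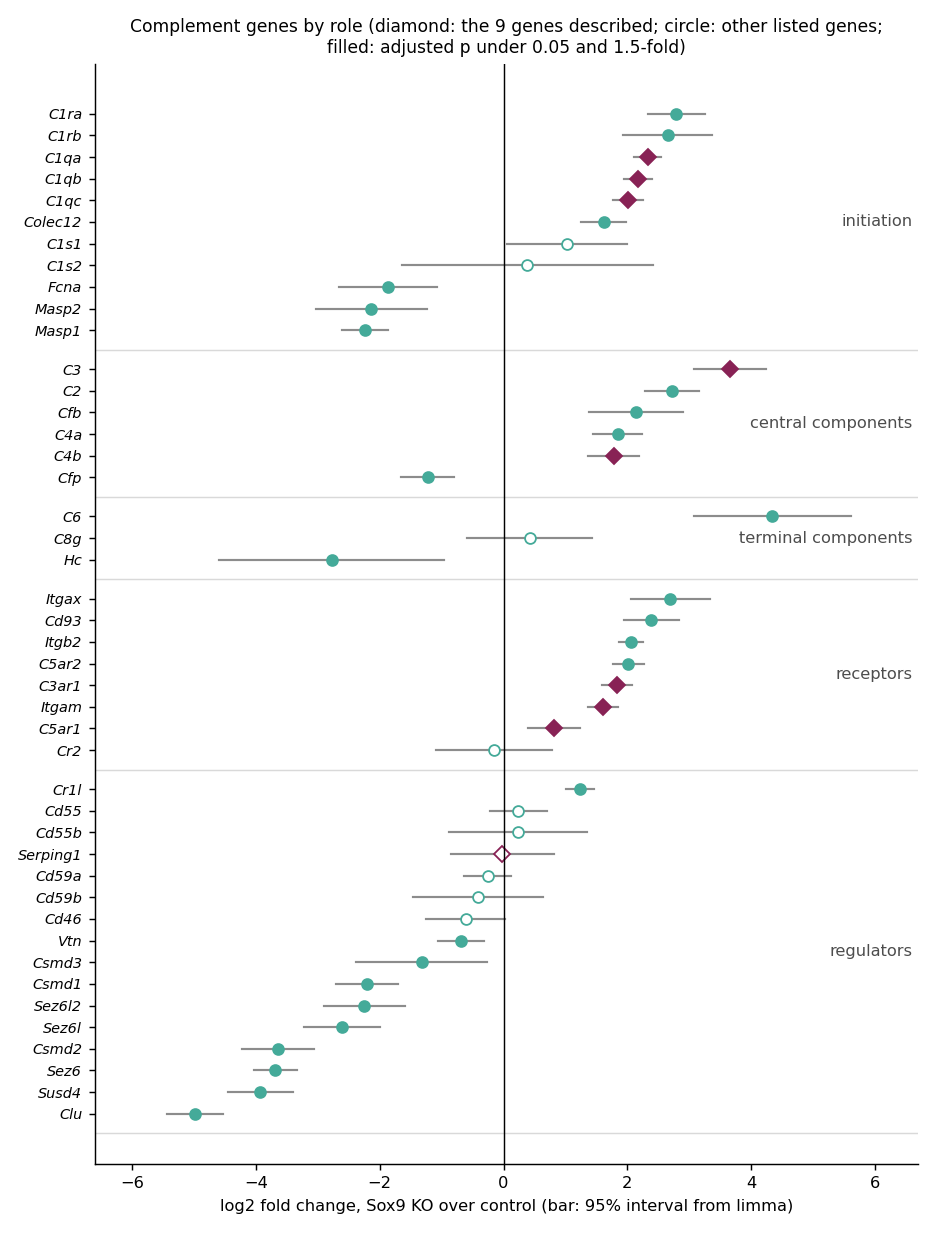
Log2 fold change of Sox9 KO over control (horizontal axis, bars for the 95% interval from limma) for the 9 genes (diamonds) and the other complement genes shown with a mean of at least 10 normalized counts (circles), grouped by role, filled where the gene was called. Receptors and central components lie mostly on the right and regulators mostly on the left, from C6 at 4.34 to Clu at -4.98.

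Among initiation genes, the C1r protease genes rose: C1ra went from 68.2 ± 11.2 to 479 ± 74.8 (log2 fold change 2.79, SE 0.21, limma, adjusted p = 1.2e-06) and C1rb from 23.4 ± 6.71 to 149 ± 23.7 (2.65, SE 0.32, adjusted p = 4.5e-05). The pair shares 48.0% of the windows of C1ra and 59.2% of those of C1rb, so their reads are not cleanly separable. C1s1, the partner protease, went from 14.9 to 33.1 without passing the test (1.02, limma, adjusted p = 0.063). It passed without KO replicate 1 (1.33, limma, adjusted p = 0.032), under quantile normalization (1.87, limma, adjusted p = 0.0026), without the variance trend (limma, adjusted p = 0.036) and with a pseudocount of 5 (0.87, limma, adjusted p = 0.048). C1s2 had overlapping groups (0.39, adjusted p = 0.73). Among lectin route genes the proteases fell, Masp1 from 634 ± 22.4 to 134 ± 20.3 (-2.24, SE 0.16, limma, adjusted p = 1.1e-06) and Masp2 from 60.8 to 13.1 (-2.14, adjusted p = 0.00095), although 57.2% of the Masp2 windows also occur in Tardbp. The ficolin Fcna fell from 109 ± 38.4 to 28.6 ± 8.22 (-1.87, SE 0.36, limma, adjusted p = 0.001), while the collectin Colec12, a scavenger receptor, rose from 436 ± 94.99 to 1324 ± 134 (1.62, SE 0.16, limma, adjusted p = 1.1e-05).

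Among central and terminal components, C2, the partner of C4 in the classical C3 convertase, rose from 139.6 ± 18.6 to 938 ± 240.4 (log2 fold change 2.72, SE 0.20, limma, adjusted p = 9.9e-07). Cfb, its counterpart in the alternative route, stood at 238, 254 and 317 in the controls and at 2205, 671 and 1126 in the KO libraries (2.14, SE 0.34, limma, adjusted p = 0.00031). KO replicate 1 was highest for Cfb, as it was for C3, C4b and the C1q chains. Both genes share windows with the predicted gene Gm20547, 58.0% of those of C2 and 81.4% of those of Cfb. Properdin, Cfp, which stabilizes the alternative convertase, fell from 324 ± 8.97 to 139.9 ± 29.6 (-1.23, SE 0.19, limma, adjusted p = 0.00029). C6, of the membrane attack complex, rose from 5.31 ± 4.45 to 112 ± 41.8 (4.34, SE 0.57, limma, adjusted p = 7.6e-05), with 1 to 7 reads behind each control value. Hc, the gene of C5, was low in the controls and lower in the KO libraries (26.2 ± 7.73 against 4.86 ± 5.38; -2.78, SE 0.82, limma, adjusted p = 0.013), a call lost without control replicate 1 or 3 (adjusted p = 0.061 and 0.051). C8g gave 22.7 and 28.9 (0.42, limma, adjusted p = 0.44). Under quantile normalization C8g passed the test (1.27, limma, adjusted p = 0.028) and Hc did not (adjusted p = 0.051).

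Among the remaining receptors, Itgax (CD11c), the alpha chain of complement receptor 4, rose from 652 ± 292 to 3917 ± 457 (log2 fold change 2.69, SE 0.29, limma, adjusted p = 1.6e-05). Cd93, a membrane lectin once described as a C1q receptor, rose from 822 ± 172 to 4329 ± 1149 (2.38, SE 0.20, limma, adjusted p = 2.6e-06). Cr2, the receptor of B cells and follicular dendritic cells, gave 78.3 and 64.9 with overlapping groups (-0.16, limma, adjusted p = 0.76), and its sign turned under quantile normalization (0.65).

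Of the 17 further regulators tested, the largest of the role groups, 9 fell (52.9%), against 28.8% of all genes tested. Clu, a secreted inhibitor of the terminal complex that astrocytes make in large amounts, was 30.4 times lower in the KO libraries (24666 ± 1369 against 811 ± 261; log2 fold change -4.98, SE 0.21, limma, adjusted p = 2.9e-08). Susd4 fell from 601 ± 92.9 to 39.0 ± 9.77 (-3.93, SE 0.24, limma, adjusted p = 2.6e-07). The CUB and sushi domain genes, best known from neurons, fell as well: the log2 fold change was -3.68 for Sez6, -3.64 for Csmd2, -2.61 for Sez6l, -2.25 for Sez6l2 and -2.21 for Csmd1 (limma, adjusted p of 7.4e-05 or less). Csmd3 fell by 1.33 (limma, adjusted p = 0.033) with overlapping groups, since KO replicate 2 was at 1348 and the other KO libraries at 265 and 333. Its adjusted p was 0.12 without KO replicate 1, 0.18 without KO replicate 3 and 0.095 to 0.14 without any 1 control, and the call was lost in each case, as it was with edgeR (-0.85, adjusted p = 0.16), DESeq2 (-0.93, adjusted p = 0.26) and limma without the variance trend (adjusted p = 0.12). Without KO replicate 2 the log2 fold change was -2.05 (limma, adjusted p = 6e-06). Beside these values, all 10 astrocyte markers fell as given above and 9 of 10 neuron markers fell, from a summed level of 17892 to 24261 to one of 2660.03 to 4850.5, and their part in the result was not tested. Vtn, an inhibitor of the terminal complex, fell by 0.69 (limma, adjusted p = 0.0044), and this call was lost without control replicate 1 (-0.58), without KO replicate 1 (-0.54) and under quantile normalization (-0.56).

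Only 2 of the 17 further regulators tested rose (11.8%, against 22.2% of all genes tested). Among them Cr1l, the rodent membrane inhibitor Crry, went from 1064 ± 82.6 to 2500.2 ± 189 (1.23, SE 0.10, limma, adjusted p = 2.7e-06). The other membrane inhibitors did not pass the test: Cd55 (0.24), Cd55b (0.23), Cd59a (-0.26), Cd59b (-0.41) and Cd46 (-0.61) had limma adjusted p-values from 0.09 to 0.71, and each of these 5 changed sign under at least 1 other scaling. Cd55 passed the test under quantile normalization (0.64, limma, adjusted p = 0.028). Cd46 passed it with the same total (-0.85, limma, adjusted p = 0.036), with the same total without Rn45s (-0.93, limma, adjusted p = 0.02) and without KO replicate 2 (-0.80, limma, adjusted p = 0.043).

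The genes with the most similar profiles over the 6 libraries were sought by the root mean square difference of centred log2(value + 1). Nearest to the mean of the C1q chains were Gm13157 (0.0495), Irf8 (0.0504), a transcription factor of myeloid cells, Gm10413 (0.0541), Itgb2 (0.0644) and Il1rl2 (0.0649), the receptor of interleukin 36. Irf8 went from 2861 to 12256 normalized counts (log2 fold change 2.10, limma, adjusted p = 4.1e-08), and Gm10413 was listed at 0 in all controls and averaged 3.65 in the KO libraries. Nearest to C3 were Ly6i (0.272), Fcgr4 (0.290), an activating receptor for immunoglobulin G that went from 456 to 6130.4, and the sialyltransferase gene St6galnac2 (0.292). Nearest to Serping1 were Ifnk (0.195), 4930479D17Rik (0.201) and Fgf17 (0.213), all low. The distances to C3 and to Serping1 were larger than those to the C1q chains, but the C1q target was a mean over genes and the others single genes. The distances are thus not like for like. C3 and Serping1 also varied more among their own replicates.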

How the data were processed

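RNA-seq had been run on 3 control and 3 Sox9 KO libraries of TurboRFP-sorted olfactory bulb cells, prepared from total RNA with the NuGEN Trio kit. Per the labels and the study's methods, the authors mapped reads to mm10 with STAR 2.5.0a, obtained counts per gene using GenomicAlignments and applied DESeq2 1.20.0 for normalization. Neither the gene annotation nor the strand setting is given in the sources used here. In each library the deposited signal values carry the name RPM, but 100% of them were whole multiples of 1 step within 0.01 read, so that they are read counts divided by a size factor (0.634 to 2.53); they are called normalized counts. Reads on genes per library came to 18242129 to 86906527, and the read count behind a gene sets its counting error.

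Genes with a mean of at least 1 were compared by limma 3.58.1 (R 4.3.3), taking log2(value + 1), with a variance trend and two-sided p-values, Benjamini-Hochberg adjusted over all 18413 genes tested. A pseudocount understates changes of low genes. A gene was called at an adjusted p under 0.05 and at least 1.5-fold; the study states a p of 0.05 and 1.5-fold without saying whether its p was adjusted. Single ratios and levels relative to microglia markers were tested with the exact two-sided permutation test, whose smallest p is 0.1. Lengths, exon overlaps and shared 50-base windows came from the GENCODE annotation of the same build, promoters from RefSeq. All 9 genes are named; of the other complement genes, those with a mean of at least 10; of each cell type list, its leading genes; and the nearest profiles to the C1q chains (5), C3 and Serping1 (3 each). The 9 genes and all lists were chosen with earlier results of these data known. Tests were checked on simulated data with far fewer changed genes than were called here, so the check does not cover changes this broad. Alternatives to the pseudocount, filter, scaling, variance model, replicate block, tool (edgeR 4.0.16 and DESeq2 1.42.0 on recovered reads), marker yardstick and library set were run. Libraries with the same replicate number did not deviate together. The study's qPCR, imaging and physiology were not analysed here. A few genes that the naming rule above would include are left unreported.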

Additional observations from a re-analysis of the deposited data

How the results depend on the processing

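Of the 9 genes 7 or 8 were called higher and 0 lower whichever library was left out; complement genes called higher came to 20 to 22 and lower to 11 to 15, and all genes called higher to 3819 to 4035 and lower to 4929 to 5129. With the replicate block 8 of the 9 genes, 21 complement genes and 4048 genes in all were called higher, and 5227 lower; nothing in the labels pairs the numbers, same-numbered libraries correlated at -0.0513, -0.0134 and -0.013, and the block changed no call of a named gene. Against 4090 genes called higher with the deposited scaling, libraries set to the same total gave 2936, and the same total without Rn45s gave 2630. The median of all genes moved by 0.27 with quantile normalization, -0.23 with the same total and -0.31 with the same total without Rn45s. The log2 fold changes ran, over all settings, from 1.78 to 2.40 for C1qa, 1.51 to 2.24 for C1qb, 1.38 to 2.08 for C1qc, 3.33 to 3.95 for C3, 1.163 to 1.94 for C4b, 1.24 to 1.92 for C3ar1, 0.49 to 1.02 for C5ar1 and 1.0 to 1.69 for Itgam. Signs turned for genes that were not called: Serping1 gave 0.25 with quantile normalization, 0.094 with edgeR, 0.045 with DESeq2 and -0.36 to 0.42 with 1 library left out; C1s2 -0.32 with edgeR, -0.43 with DESeq2 and -0.37 to 1.497 with 1 library left out; Cr2 0.65 with quantile normalization and -0.64 to 0.13 with 1 library left out. Quantile normalization gave 0.22 for Cd46, 0.28 for Cd59a and 0.44 for Cd59b. Cd55 gave -0.0039 with the same total and -0.088 without Rn45s, where Cd55b gave -0.073 (-0.084 to 0.56 with 1 library left out).

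Relative to Csf1r, Cx3cr1, Aif1 and Tyrobp alone the KO minus control differences were 0.33 for C1qa, 0.17 for C1qb, 0.0087 for C1qc, -0.22 for C4b, -0.16 for C3ar1 and -0.39 for Itgam. Relative to border macrophage markers they were 2.46, 2.30 and 2.14 for C1qa, C1qb and C1qc, 3.79 for C3, 1.91 for C4b, 1.97 for C3ar1, 0.95 for C5ar1, 0.11 for Serping1 and 1.74 for Itgam. Without Fcrls, an alternative added after seeing the data, as was summing C4a and C4b, they were 0.17 for C1qc, -0.060 for C4b and -0.00033 for C3ar1. With 1 library left out they ran from -0.21 to 0.26 for C4b, -0.031 to 0.25 for C3ar1 and -0.19 to 0.0051 for Itgam. The cause was not tested for any of these. Per kb of merged exons the order was the same, but in the KO libraries the ranges of C1qc and C1qa overlapped and those of C3ar1 and C4b did not. With 3 libraries a group, a call can turn on 1 library. The C5ar1 call was lost without control replicate 1, where the change fell under 1.5-fold (log2 fold change 0.57, limma, adjusted p = 0.0068). It held with any other 1 library left out. Genes with few reads in 1 group have wide intervals, such as C6 in the controls (1 to 7 reads) and Hc in the KO libraries (0 to 10).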
